A study of Mus musculus with 6 samples.

Results

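Resident macrophages of fat are long-lived phagocytes that sit along vessels and between adipocytes, take up apoptotic cells, lipid, iron and debris through scavenger and lectin receptors, and supply complement and growth factors. In mouse adipose tissue they are known for Mrc1, the mannose receptor CD206, F13a1, the catalytic subunit of coagulation factor XIII, Cd163, the scavenger receptor for haemoglobin bound to haptoglobin, and the complement subunits C1qa, C1qb and C1qc. A different state, the lipid-associated macrophage, is known for Trem2, Gpnmb and Spp1. Nuclei of the first kind were collected from 6 single-nucleus RNA libraries of white fat by the UMIs (unique molecular identifiers, one per captured RNA molecule) of these genes. The filter asked for more than 500 genes, more than 1000 UMIs and less than 15% of UMIs from mitochondrial genes. Of the 27074 nuclei that passed it, 585 (2.16%) held at least 4 UMIs of the 6 resident genes from at least 2 of them, under 2 UMIs of Spp1, Gpnmb and Trem2, no UMI of the lymphatic endothelial genes Mmrn1, Prox1 and Reln, at most 1 UMI of the lymphocyte genes Skap1, Themis, Bank1 and Pax5, and at most 1 UMI of Plin1, Epcam, Pdgfra and Ptprb, which mark adipocytes, epithelium, stromal progenitors and vessels.

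The libraries came from female C57BL/6J mice with no genetic alteration or treatment named. Subcutaneous adipose tissue (SAT, inguinal) was sampled at 2 and 24 months of age and visceral adipose tissue (VAT, gonadal) at 24 months, with 2 libraries in each of these 3 groups. The older mice are 24 months old by the labels, which are followed here, and 26 months old by the series' design text. All libraries carry adipocytes as their labelled cell type, whereas the nuclei described here are macrophage nuclei by their genes. The study describes 2 mice per age and both depots collected from them. No label ties a replicate number to a mouse, so p-values measure the spread between libraries, which may be technical.

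The 2 SAT libraries at 2 months gave 73 and 97 members, those at 24 months 28 and 166, and the 2 VAT libraries 156 and 65. Replicate 2 thus holds 85.6% of the members of SAT at 24 months, so the SAT 24 months level of any gene rests on a library of 45166 member UMIs and another of 291929. In the other 4 libraries the members' UMIs sum to between 115815 and 238066. A member nucleus held a median of 1457 UMIs, against 1596.5 over all filtered nuclei. No member barcode was shared between libraries, and at most 0.482% of the filtered barcodes of the smaller library of a pair were shared. Levels below are CPM, the UMIs of a gene per 1000000 UMIs summed over the members of a library, unless a share of nuclei is named; fewer members expressing a gene and less RNA per member cannot be told apart in such sums.

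The median member held between 9 and 18.5 UMIs of the 6 genes, depending on the library. Exactly 4 UMIs were held by 2, 16, 1, 9, 14 and 10 members of SAT 2 months replicates 1 and 2, SAT 24 months replicates 1 and 2 and VAT 24 months replicates 1 and 2, the order used throughout, while 10, 14, 1, 15, 11 and 13 nuclei that met every other condition stopped at 3 UMIs. The limits on genes of other cell types removed 22, 28, 16, 139, 65 and 21 nuclei that carried enough resident UMIs, of which 92 in SAT 24 months replicate 2 were removed by the adipocyte, epithelial, stromal and vascular genes. SAT 24 months replicate 2 is also the library with the most members, and the part of this difference in admixed nuclei was not tested.

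The genes that chose the members did not stand at one level. Mrc1 measured 2352 and 1438 CPM in young SAT, 2856 and 2867 CPM in aged SAT and 2567 and 1209 CPM in VAT. F13a1 was at 1914, 1045, 2281, 2442, 2436 and 760 CPM, and Cd163 ranged from 164 CPM in VAT 24 months replicate 2 to 1507 CPM in SAT 24 months replicate 2. In VAT 24 months replicate 2 all 3 of these genes were at their lowest. C1qa was at 3185, 2532, 1439, 2120, 1600 and 1995 CPM, with its lowest value in SAT 24 months replicate 1. Of the 585 nuclei, 74.0% held a Mrc1 UMI, 66.5% a F13a1 UMI, 37.8% a Cd163 UMI and 79.0% a C1qa UMI, whereas 1.90%, 1.82%, 0.693% and 1.39% of 1155 T cell nuclei (median 1512 UMIs), which should lack these genes, held one.

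Genes outside the rule gave the members a macrophage profile in every library. Of 15 general macrophage genes, 14 were higher in members than in all other filtered nuclei in 6 of 6 libraries, with a median ratio over all libraries of 20.4, and Itgam was listed at 0 throughout. Csf1r, the receptor for the growth factor that keeps macrophages alive, was 41.1 times as high in members, and the lysozyme gene Lyz2 36.0 times. Of 25 genes listed for resident adipose macrophages, 22 were higher in 6 of 6 libraries, with a median ratio of 32.0. Among them were the hyaluronan receptor Lyve1 (47.1 times), the folate receptor Folr2 (42.4 times), the lectins Cd209f (57.2 times) and Clec10a (38.5 times), the phosphatidylserine receptor Timd4 (32.0 times) and the scavenger receptor Stab1 (24.4 times). Outside this list, Retnla, a secreted product of alternatively activated macrophages, was 64.7 times as high, and the apolipoprotein Apoe 14.2 times. These ratios describe nuclei chosen by genes of the same RNA and are given with no test.

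Most markers of other cell types were lower in members than in the other nuclei, with exceptions in some genes and libraries. None of 12 adipocyte, 12 stromal progenitor, 13 T and NK cell, 12 B and plasma cell or 10 endothelial genes was higher in members in 6 of 6 libraries, and 2 of 12 dendritic and 1 of 12 mast cell and neutrophil genes were. Pooled over all libraries, 4 of 10 endothelial, 4 of 12 dendritic and 4 of 12 mast cell and neutrophil genes were higher in members. So was 1 of 12 B and plasma cell genes, and 0 of the adipocyte, stromal progenitor and T and NK cell genes were. The median ratios of these lists lay between 0.206 and 0.756. The summed level of the adipocyte list in members was 1052, 664, 886, 3247, 3415 and 1002 CPM, below the 5297, 2993, 9372, 17837, 26062 and 2609 CPM of the other nuclei and highest in the same 2 libraries. The endothelial list stood at 155, 194, 576, 747, 265 and 319 CPM in members and at 379, 419, 534, 722, 292 and 667 CPM in the other nuclei, so that the members of SAT at 24 months were at the level of the tissue around them. None of the 12 adipocyte or 10 endothelial genes was at 0 over all members. The dendritic list stood at 593, 558, 753, 623, 550 and 656 CPM in members and at 1011, 1685, 927, 508, 77.7 and 414 CPM in the other nuclei, so that it was higher in members in 3 libraries. The B and plasma cell list was higher in the members of VAT 24 months replicate 2, at 4352 against 1398 CPM. This value came mostly from 1 nucleus, which held 404 UMIs of the antibody gene Ighm.

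**Figure D1:**
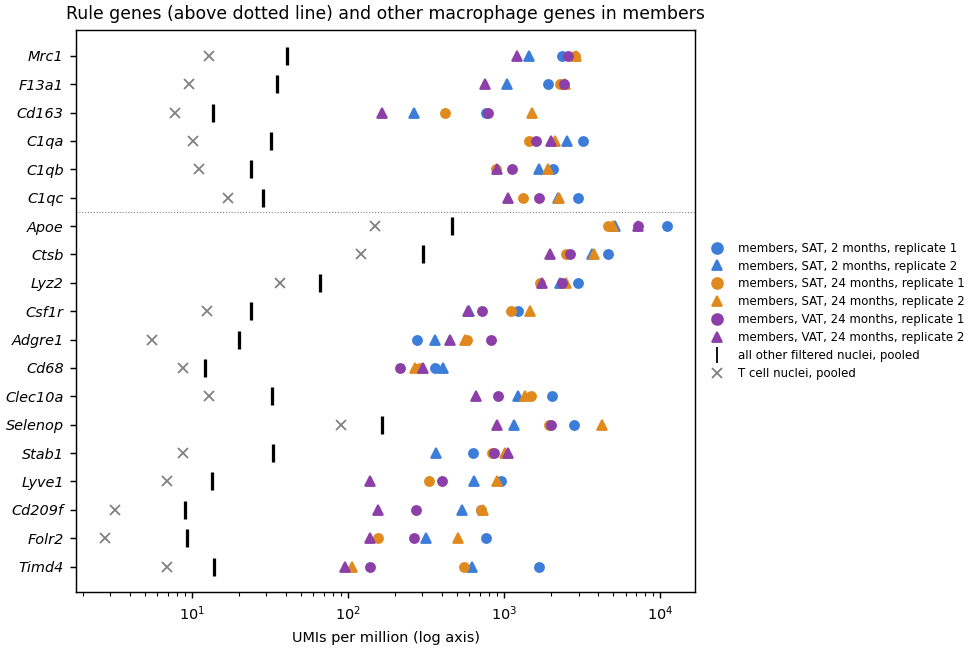
Level of each rule gene (above the dotted line) and of other macrophage genes in the members of each of the 6 libraries (coloured points) and in all other filtered nuclei pooled (black bars), in CPM on a log axis. The members' points lie to the right of the bars for the genes shown, with ratios such as 41.1 for Csf1r and 47.1 for Lyve1.

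The share of members was first compared between ages in SAT and between depots at 24 months. Members made up 1.59% (95% Clopper-Pearson interval 1.25 to 1.99%) and 1.68% (1.36 to 2.04%) of the filtered nuclei of SAT at 2 months, 1.12% (0.748 to 1.62%) and 3.53% (3.02 to 4.09%) in SAT at 24 months, and 3.52% (3.00 to 4.10%) and 1.28% (0.991 to 1.63%) in VAT at 24 months. Intervals cover counting error only. The 2 young libraries lay close together, while within each older group one library held a smaller share than both young ones and the other a larger share. The means were 1.63% ± 0.0641 (SD, n = 2) at 2 months and 2.32% ± 1.70 (SD, n = 2) at 24 months in SAT, a difference of 0.691 percentage points that did not exceed the spread between libraries (two-sided exact permutation test, p = 1). VAT at 2.40% ± 1.58 (SD, n = 2) differed from SAT at 24 months by 0.0753 points (exact permutation p = 1). With 2 libraries against 2, the exact permutation test cannot go below p = 0.333.

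Among nuclei with at least 2 UMIs of 8 immune genes, members made up 2.22%, 1.97%, 1.82%, 8.98%, 11.5% and 3.76%. The age difference was 3.31 points (5.40% ± 5.07 against 2.09% ± 0.176, SD, n = 2 each, exact permutation p = 1) and the depot difference 2.22 points (7.62% ± 5.46 in VAT, SD, n = 2, exact permutation p = 0.667). Adipocyte RNA entered this immune gate, so the denominator holds other nuclei too. With at least 4 immune UMIs, a setting chosen after seeing the data, the age difference was 6.29 points and the depot difference 5.54 points (exact permutation p = 0.667 for both). When nuclei were accepted from over 200 genes and over 500 UMIs, the share in VAT 24 months replicate 1 rose to 9.21% of all nuclei and the depot difference to 2.55 points.

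**Figure D2:**
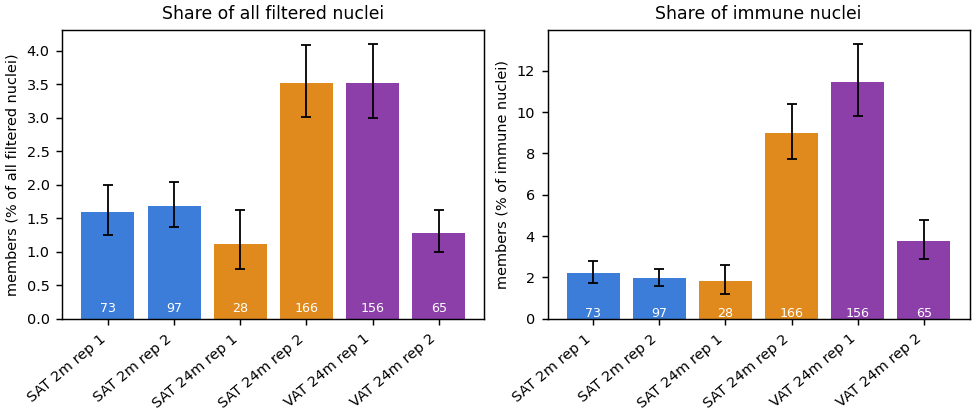
Members as a percentage of all filtered nuclei and of immune nuclei in each of the 6 libraries, with 95% Clopper-Pearson intervals as bars. SAT 24 months replicate 2 (3.53% of all filtered nuclei) and VAT 24 months replicate 1 (3.52%) stand above the other 4 libraries, which lie between 1.12% and 1.68%.

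The members of SAT were then compared between 24 and 2 months to find which genes differed with age within these macrophages. UMIs were summed over members per library, and all 3 groups were fitted together with edgeR's quasi-likelihood test. Of 4907 genes tested, 24 (0.489%) passed a Benjamini-Hochberg adjusted p of 0.05, 12 higher (0.245%) and 12 lower (0.245%) at 24 months. The genes that were lower at 24 months held several that respond to interferon, the cytokines that cells release on sensing viral or misplaced nucleic acid. Those that were higher included genes that endothelium and adipocytes also express.

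Slfn4, an interferon-inducible member of the Schlafen family found in myeloid cells, had the largest log2 difference of the lower genes named here (chromosome 11:83066012-83081042, GRCm39). Its level was 233 and 735 CPM in the members at 2 months, 0 and 0 in SAT at 24 months, and 168 and 147 in VAT at 24 months. With 166 UMIs at 2 months and none in 194 nuclei at 24 months, the level fell at least 57.8-fold, taking 3 UMIs over the group as the floor (edgeR adjusted p = 0.0107). In nuclei, 10 of 73 and 33 of 97 members held a Slfn4 UMI at 2 months, and 0 of 194 at 24 months, which by counting error alone allows up to 1.55% of these nuclei, pooled over 2 libraries, to hold a UMI and does not limit the share expressing the gene. Cd5l, a secreted scavenger protein of tissue macrophages (chromosome 3:87265182-87278380), likewise had no UMI in SAT at 24 months. It was at 162 and 155 CPM at 2 months, 0 and 0 in SAT at 24 months, and 210 and 242 in VAT. Its fall was at least 17.8-fold (edgeR adjusted p = 0.0107).

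Zbp1, a sensor of Z-form nucleic acid, was at 148 and 171 CPM at 2 months and 0 and 3.43 in SAT at 24 months (chromosome 2:173033815-173060724, edgeR adjusted p = 0.0193). Its 52 UMIs at 2 months stood against 1 at 24 months, a ratio of 54.4 with a 95% counting interval of 9.34 to 2188. Oas3, an oligoadenylate synthetase of the antiviral RNase L pathway, was at 98.9 and 238 CPM and then 0 and 3.43 (chromosome 5:120891163-120915729, ratio 59.6, interval 10.3 to 2395, edgeR adjusted p = 0.0323). Ms4a4c, a 4-transmembrane surface protein of the MS4A family, was at 155 and 398 CPM and then 22.1, which is 1 UMI, and 0 (chromosome 19:11382131-11404610, ratio 98.3, interval 17.2 to 3922, edgeR adjusted p = 0.0433). Ifi213, a DNA-sensing PYHIN family gene, kept a level that could be measured at both ages, 318 and 265 CPM against 44.3 and 44.5 (chromosome 1:173393846-173426881), and fell by 2.64 ± 0.51 (SE) on the log2 scale (edgeR adjusted p = 0.0433).

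Among the genes with no such role, St6galnac3, a sialyltransferase (chromosome 3:152903903-153430816), was at 530 and 547 CPM at 2 months, 44.3 and 41.1 in SAT at 24 months and 16.8 and 25.9 in VAT. It fell by 3.61 ± 0.51 (SE) on the log2 scale with age (edgeR adjusted p = 0.0107), and the libraries of each group lay within a narrow range. At 2 months, however, 64 of the 75 and 92 of the 99 St6galnac3 UMIs lay in the 14 and 36 members without a UMI of Mrc1, F13a1 or Cd163, described further on. Cd4, the co-receptor of helper T cells that some tissue macrophages also carry (chromosome 6:124841655-124874758), was at 290 and 282 CPM and then 66.4 and 6.85 CPM, and fell by 3.90 ± 0.77 on the log2 scale (edgeR adjusted p = 0.0433). BC147527 (chromosome 13:120761817-120770374) was at 184 and 194 CPM and then 22.1 and 13.7, and fell by 3.51 ± 0.69 (edgeR adjusted p = 0.0433).

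The young SAT libraries held more lymphoid RNA around the members. The summed level of 13 T and NK cell genes in the members was 374 and 735 CPM at 2 months and 88.6 and 75.4 at 24 months, and in the other nuclei 2171 and 3296 against 1074 and 239 CPM. None of these 13 genes was at 0 over all members. A list of lymph node stroma genes, chosen after values were seen, stood at 539 and 514 CPM in the other nuclei at 2 months and at 147 and 49.9 at 24 months. Cd4 itself was at 102 and 161 CPM in the other nuclei at 2 months against 25.5 and 7.15, and its age difference in members did not differ from that in other immune nuclei (interaction in edgeR, log2 difference -0.94 ± 0.88 SE, adjusted p = 1). The part of these nuclei in the lower levels at 24 months was not tested. Slfn4 was at 1.55 and 10.3 CPM and Cd5l at 2.16 and 7.01 CPM in the other nuclei at 2 months, far under the members.

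Epas1, a hypoxia-inducible transcription factor (chromosome 17:87061087-87140838), had the largest log2 difference of the genes named here as higher at 24 months. Its level of 7.06 and 5.53 CPM at 2 months is 1 UMI in each library. SAT at 24 months held 221 and 206 CPM and VAT 109 and 34.5 CPM. The ratio was 33.5 (95% counting interval 8.93 to 282) and the log2 difference 4.97 ± 0.82 (SE, edgeR adjusted p = 0.0193). Adgrf5, an adhesion receptor known from endothelium (chromosome 17:43671009-43770448), rose from 14.1 and 16.6 CPM to 266 and 329 (log2 difference 4.28 ± 0.65, edgeR adjusted p = 0.0122). Cavin1, which coats caveolae and is abundant in adipocytes and endothelium (chromosome 11:100847559-100861713), rose from 14.1 and 49.8 CPM to 244 and 421 (3.42 ± 0.62, edgeR adjusted p = 0.0323).

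Cd209a, a C-type lectin of the DC-SIGN family (chromosome 8:3793397-3798984), rose from 7.06 and 16.6 CPM to 221 and 195 (log2 difference 4.03 ± 0.71, edgeR adjusted p = 0.0299) and was at 92.4 and 43.2 CPM in VAT. It is also a marker of dendritic cells and stood at 1.92 to 8.13 CPM in the other nuclei of SAT. A set of 6 dendritic genes that includes it summed to 63.6 and 188 CPM in members at 2 months and to 266 and 452 CPM at 24 months. Cd209a itself gave 7.06 and 16.6 and then 221 and 195 CPM of these sums, so they are no independent measure of dendritic RNA. The part of dendritic RNA in the rise was not tested. Mamdc2 (chromosome 19:23279973-23425886) rose from 14.1 and 11.1 CPM to 288 and 206 (4.21 ± 0.81, edgeR adjusted p = 0.0433), with 10.3 to 13.1 CPM in the other nuclei of SAT at either age. Arhgap6 (chromosome X:167578095-168087432), rose from 28.3 and 27.6 CPM to 244 and 178 (2.86 ± 0.58, edgeR adjusted p = 0.0482).

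The 6 genes differed in what the surrounding nuclei held. Epas1, Adgrf5 and Cavin1 were also higher at 24 months in the other SAT nuclei. Epas1 stood there at 55.2 and 43.2 CPM at 2 months and 75.1 and 193 at 24 months, Adgrf5 at 18.3 and 9.91 against 74.7 and 244, and Cavin1 at 58.5 and 45.6 against 101.4 and 433. The endothelial list in members moved with them, as given above, from 155 and 194 to 576 and 747 CPM, and its part in these differences was not tested. The adipocyte list in members stood at 1052 and 664 CPM at 2 months and 886 and 3247 at 24 months, with 12 of 12 genes fitted higher and a median log2 difference of 1.30, which reversed to -1.47 without SAT 24 months replicate 2. Its part was not tested either. For Cd209a and Mamdc2 the other nuclei held under 14 CPM at both ages. Arhgap6 stood in them at 124 and 83.3 CPM at 2 months and 146 and 144 CPM at 24 months. In a fit of members against other immune nuclei of the same libraries, 39 of 16359 genes (0.238%) had an age difference that differed between both kinds of nuclei, Mamdc2 (adjusted p = 0.00691), Slfn4 (adjusted p = 0.00242) and St6galnac3 (adjusted p = 0.000121) among those named here, but not Epas1 (adjusted p = 0.116), Cd209a (adjusted p = 0.124), Arhgap6 (adjusted p = 0.218), Adgrf5 (adjusted p = 1) or Cavin1 (adjusted p = 1).

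The age calls depended on which libraries were present. Without SAT 24 months replicate 2, 1 gene was called and 0 of the 24 were kept; without SAT 2 months replicate 2, 2 were called (Slfn4 and Cd5l), without SAT 2 months replicate 1, 7, and without SAT 24 months replicate 1, 93, which held all 24. Left out of a fit, a library leaves its group with 1 sample that is assumed to vary like the other groups.

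**Figure D3:**
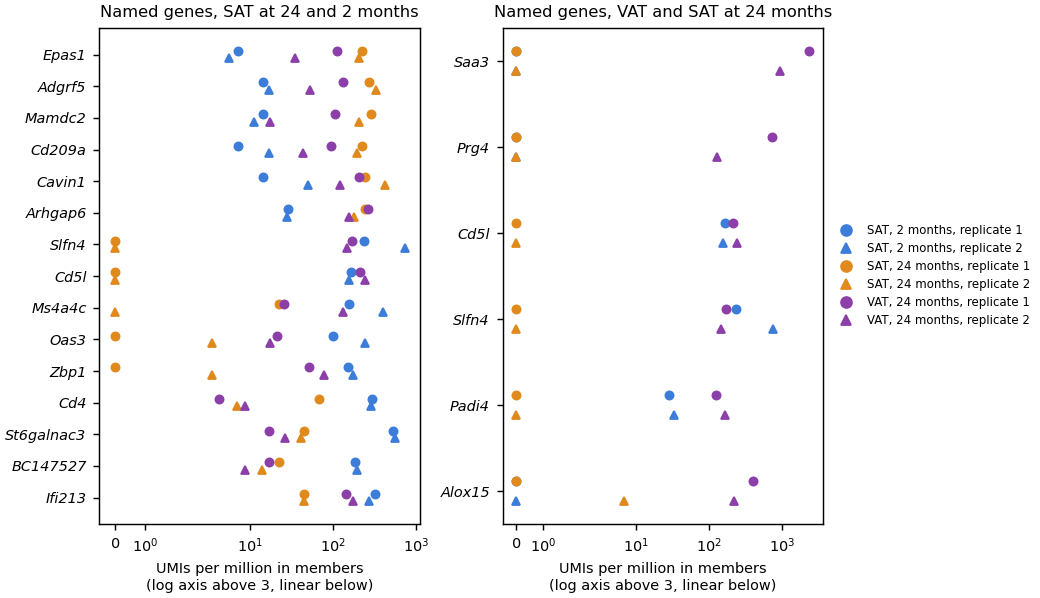
Level in members of the genes named for the age comparison and for the depot comparison, one point per library, in CPM on an axis that is logarithmic above 3 and linear below. Slfn4 and Cd5l sit at 0 in both SAT 24 months libraries and above 146 CPM in the other 4, and Saa3 and Prg4 above 0 in the 2 VAT libraries only.

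A list of 25 interferon-induced genes was then examined as a group. Of its 21 tested genes, 3 passed the test, all lower at 24 months (Zbp1, Oas3 and Ifi213), where 0.245% of all tested genes were called lower. Fitted lower were 21, and 20 did not overlap between the libraries of both ages, where 25.7% of all tested genes were lower without overlap. The median log2 difference was -2.53, against -0.01 over all tested genes. Some of these genes passed the filter on low counts only through the young libraries, which favours a lower fitted value at 24 months. Only 12 genes of the list passed it in a fit without those libraries. The counts and the median above are thus partly fixed by the filter and are a description only. Of the 4 untested genes, Oas1a, Mx2 and Usp18 were also lower in both SAT 24 months libraries, while Xaf1 overlapped, at 28.3 and 16.6 against 22.1 and 27.4 CPM. The summed level of all 25 genes was 5191 and 6983 CPM in the members at 2 months, 1926 and 1713 in SAT at 24 months and 2642 and 3333 in VAT. The young members stood highest and the older SAT members lowest, with no overlap between the 3 groups.

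The list covers nucleic acid sensors, antiviral effectors and the factors that induce them. Irf7, the transcription factor that amplifies interferon production, was at 325 and 376 CPM at 2 months and 88.6 and 10.3 at 24 months in SAT (edgeR adjusted p = 0.0912). Ifit1, which binds foreign RNA caps, was at 127 and 166 CPM and then 0 and 13.7 (edgeR adjusted p = 0.0637). Rsad2, the antiviral enzyme viperin, was at 247 and 586 CPM and then 0 and 34.3 (edgeR adjusted p = 0.0571), and Mx1, an antiviral GTPase, at 184 and 498 and then 0 and 30.8 (edgeR adjusted p = 0.0637). Ifi207 differed little, at 410 and 326 against 332 and 312 CPM (edgeR adjusted p = 0.945).

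The same list was at 1590 and 2311 CPM in all other nuclei of SAT at 2 months and at 983 and 717 CPM at 24 months, so the surrounding nuclei were lower at 24 months too. The age difference in members exceeded that in other immune nuclei by a log2 value of -3.59 ± 1.30 (SE) for Zbp1, -3.87 ± 1.52 for Oas3 and -0.99 ± 0.70 for Ifi213, none of which passed the adjustment over all genes (interaction in edgeR, adjusted p = 0.498, 0.613 and 1). Over the settings, 19 to 21 genes of the list were fitted lower. The exception was the members with a UMI of Mrc1, F13a1 or Cd163, where 17 of 17 were. The genes counted were those that passed the filter, which favours this direction, so the counts add no support for it. No gene of the list was called without SAT 2 months replicate 2 or without SAT 24 months replicate 2.

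**Figure D4:**
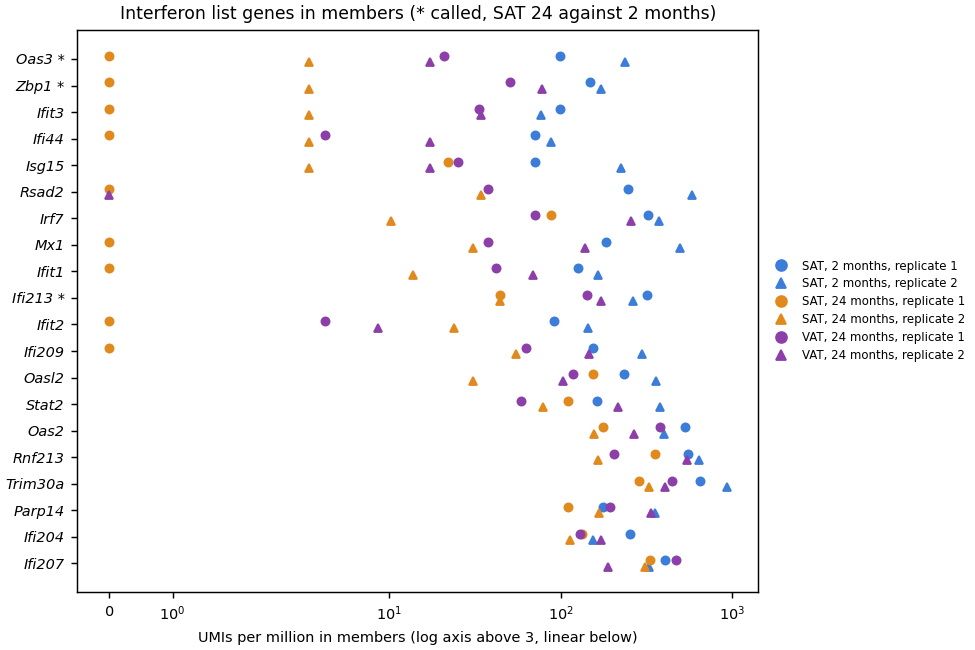
Level in members of tested genes of the interferon list, one point per library, in CPM on an axis that is logarithmic above 3 and linear below, with an asterisk at the 3 genes that passed the test between ages. For each gene shown except Ifi207, both SAT 2 months points lie to the right of both SAT 24 months points.

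The promoters of these genes are known to hold interferon-stimulated response elements, which interferon regulatory factors bind at a repeated GAAA. The letters GAAANNGAAA were searched on both strands of the 250 bases before each gene's start in RefSeq promoters (GRCm38.p6, a different build from that of the counts). Of the 12 genes that were lower at 24 months, 10 had a promoter in the table and 3 of these held the letters: Oas3, Ifi213 and BC147527. Of the 12 that were higher, 10 had a promoter and 1, Arhgap6, held them, and of all 27025 promoters 3.46% did. Only 17 of the 25 interferon genes had a promoter in the table, so no share is given for the list. The matches of the 3 lower genes are shown with that of Ifit1, which did not pass the test, as examples of the letters. Further genes of the list hold them as well, Ifi207, which did not pass the test, among them. Each is written 5′ to 3′ on the gene's strand with 10 bases on either side, the match in capitals; that of Ifit1 lies on the opposite strand and reads as TTTCNNTTTC.
Oas3, chr5:120777715-120777744, minus strand: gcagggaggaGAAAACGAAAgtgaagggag
Ifi213, chr1:173599326-173599355, minus strand: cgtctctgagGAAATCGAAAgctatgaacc
BC147527, chr13:120300272-120300301, plus strand: cagcagccaaGAAAAAGAAActaatgcaga
Ifit1, chr19:34640775-34640804, plus strand: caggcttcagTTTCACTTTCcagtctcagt
The matches begin 75, 73, 110 and 104 bases before the start, respectively. A match is a description of letters and not of a bound site.

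In the other macrophage lists, Cd5l was the gene that passed the age test. The 24 tested resident genes were split, 13 fitted higher and 11 lower at 24 months, 5 of them higher without overlap (19.8% of all tested genes were), with a median of 0.03 against -0.01 over all tested genes. Lyve1 was at 954 and 641 CPM at 2 months and 332 and 897 at 24 months in SAT (edgeR adjusted p = 0.909), the ages overlapping. Rbpj, the effector of Notch signalling, was at 862 and 387 CPM and then 3742 and 1898 (log2 difference 2.19, edgeR adjusted p = 0.216). The 11 listed MHC class II genes, which present antigen, summed to 8419, 8802, 8413, 23208, 6057 and 13055 CPM. Of the 10 tested, 7 were fitted higher at 24 months, but 4 without SAT 24 months replicate 2, the single library that stood apart. None of 20 tested lysosome and autophagy genes, 18 scavenger and efferocytosis genes, 13 iron and haem genes or 14 complement and Fc receptor genes passed the test between ages, where 0.489% of all tested genes did, so that these counts show nothing particular to the lists.

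The members of VAT were compared with those of SAT at 24 months, a comparison that shares the SAT 24 months libraries with the one of age. The study collected both depots from 2 mice per age, and the fit treated the libraries as independent. Of 4907 genes, 7 (0.143%) passed the edgeR test, all higher in VAT, and 0 were lower; without adjustment 223 genes had p under 0.05, and DESeq2 called 2 higher and 0 lower. Saa3, Prg4, Alox15 and Cd5l among them stand in a list of genes known from macrophages of the body cavities, into which gonadal fat extends.

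Saa3, an acute-phase serum amyloid A protein (chromosome 7:46361422-46365576), was at 2285 and 933 CPM in the members of VAT and 0 in all 4 SAT libraries, young and old. With 652 UMIs in VAT and none in SAT at 24 months it was at least 207-fold higher (edgeR adjusted p = 0.00492). Prg4, the lubricin of joint and serosal surfaces (chromosome 1:150325163-150342009), was at 714 and 130 CPM in VAT and likewise 0 in the 4 SAT libraries, at least 58.7-fold higher (edgeR adjusted p = 0.0484). In the other nuclei of VAT, Saa3 was at 4.87 and 7.83 CPM and Prg4 at 7.83 and 5.95 CPM.

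Alox15, a lipoxygenase of peritoneal macrophages and eosinophils (chromosome 11:70234970-70242858), was at 395 and 216 CPM in VAT and at 0 and 6.85 in SAT at 24 months, a ratio of 56.7 (95% counting interval 15.3 to 473, edgeR adjusted p = 0.0192). Padi4, which converts arginine to citrulline in proteins (chromosome 4:140472808-140501939), was at 126 and 164 CPM in VAT and 0 in both SAT 24 months libraries, at least 15.6-fold higher (edgeR adjusted p = 0.0408). Cd5l (at least 24.8-fold, edgeR adjusted p = 0.00651) and Slfn4 (at least 18.1-fold, edgeR adjusted p = 0.0484), given above for age, were higher in VAT through the same absence in SAT at 24 months. In young SAT members Padi4 was at 28.3 and 33.2 CPM and Alox15 at 0 and 0, so that Saa3, Prg4 and Alox15 were listed at 0 in young SAT while Cd5l, Slfn4 and Padi4 were not. Zfpm2 also passed the test but stood lower in the members of VAT than in its other nuclei.

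Of the 16 genes listed for cavity macrophages, 8 passed the filter on low counts, some of them only through VAT, so no count or median is given over them. Besides Saa3, Cd5l, Prg4 and Alox15, Rarb, a retinoic acid receptor, stood at 101 and 94.98 CPM in VAT and at 0 and 6.85 CPM in SAT (edgeR adjusted p = 0.358). Marco overlapped, at 542 and 17.3 CPM in VAT and 399 and 3.43 CPM in SAT. Timd4 was at 554 and 106 CPM in SAT and 139 and 94.98 in VAT (edgeR adjusted p = 0.991). Gata6, the transcription factor that defines large peritoneal macrophages, did not pass the filter on low counts and stood at 63.0 and 25.9 CPM in VAT and at 0 in SAT at 24 months, which is no more than 15 and 3 UMIs.

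The resident genes leaned the other way without passing the test. Of 24, 20 were fitted lower in VAT, with a median of -0.82 against 0.01 over all tested genes. Leaving out 1 library moved this median to -0.44 without SAT 24 months replicate 2 (15 of 24 fitted lower), -0.42 without VAT replicate 2 and -1.41 without VAT replicate 1, where 1 gene was called lower. Cd209f was at 709 and 736 CPM in SAT and 273 and 155 in VAT (edgeR adjusted p = 0.683), and Clec10a at 1483 and 1357 against 920 and 656 (edgeR adjusted p = 0.991). Of the interferon genes, 18 of 21 were fitted higher in VAT, with a median of 1.02, 11 without overlap (15.3% of all tested genes) and 0 called. The median was 0.61 without VAT replicate 2. The genes with the smallest p among those lower in VAT were not called over all members. They were Mgll, the monoglyceride lipase, at 399 and 623 against 151 and 94.98 CPM (edgeR adjusted p = 0.336), Cyp4b1 (adjusted p = 0.44), Aqp1 (adjusted p = 0.558) and Adgrl4 (adjusted p = 0.624).

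No gene was called between depots without SAT 24 months replicate 2, and 12 to 27 were called without one of the other libraries. Against the depot difference of other immune nuclei, 18 of 16359 genes (0.11%) differed, Saa3 (adjusted p = 0.00158), Prg4 (adjusted p = 0.0186) and Slfn4 (adjusted p = 0.0154) among them, but not Alox15 (adjusted p = 0.289), Padi4 (adjusted p = 0.578) or Cd5l (adjusted p = 1).

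The VAT genes came from few nuclei. A Saa3 UMI was held by 17 of the 156 members of VAT replicate 1 and 4 of the 65 of replicate 2, and by 0 of 1155 T cell nuclei, of which these libraries held only 2 and 104. In replicate 1 these 17 nuclei held 98.2% of the Prg4 UMIs, 100% of those of Alox15, 98.0% of those of Cd5l, 96.7% of those of Padi4 and 38 of the 40 Slfn4 UMIs. In replicate 2 the 4 nuclei held 100% of the Prg4 UMIs and 96.0% of those of Alox15, but 67.9% for Cd5l, 47.1% for Slfn4 and 57.9% for Padi4. Prg4 and Alox15 thus lay with Saa3 in both libraries, and Cd5l, Slfn4 and Padi4 lay with it in replicate 1 and partly in replicate 2.

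Those nuclei held less Mrc1, Cd163 and Cd74 and more C1qa than the other members in both libraries. Mrc1, Cd163 and C1qa are rule genes, so that a nucleus with few UMIs of some of them had to reach the limit with others, and their opposite values are partly fixed by the rule. In replicate 1 they held 434 CPM of Mrc1 against 2928 in the other members, 116 against 909 of Cd163 and 405 against 2118 of Cd74, the MHC class II chaperone, while C1qa was at 2808 against 1395 CPM. In replicate 2 the values were 324 against 1259 CPM for Mrc1, 0 against 173 for Cd163, 1944 against 4013 for Cd74 and 5831 against 1778 for C1qa. Fibronectin, Fn1, was at 4863 against 437 CPM in replicate 1 and 4697 against 73.0 CPM in replicate 2. The scavenger receptor Marco was at 3734 CPM in those of replicate 1 and at 0 in the other 139 members, but was 1 UMI in those of replicate 2. Other genes went in opposite directions: F13a1 was at 984 against 2683 CPM in replicate 1 and 1620 against 711 CPM in replicate 2, Retnla at 405 against 4673 and 1458 against 721 CPM, and Lyve1 at 0 against 467 and 162 against 137 CPM, with 4 nuclei behind each value of replicate 2. These nuclei are described with no test because the split and the genes were chosen after their values were seen.

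**Figure D5:**
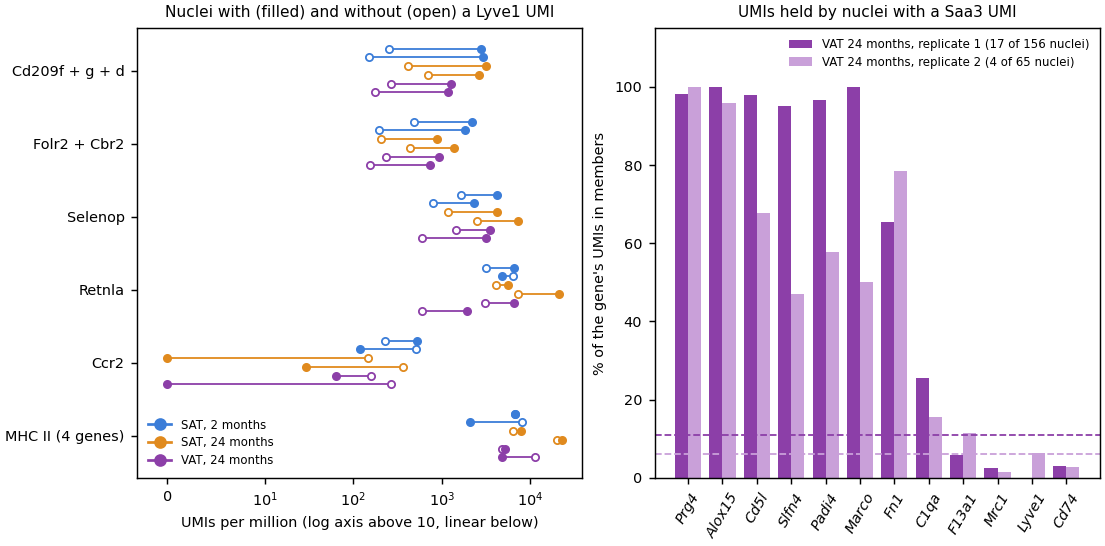
Left, levels in members with (filled) and without (open) a Lyve1 UMI for each library, in CPM on an axis that is logarithmic above 10 and linear below; right, percentage of each gene's UMIs held by the nuclei with a Saa3 UMI in the 2 VAT libraries. The 17 nuclei of VAT replicate 1 held between 96.7% and 100% of the UMIs of Prg4, Alox15, Cd5l and Padi4, and 2.46% of those of Mrc1.

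Lyve1 split the members along another line. A Lyve1 UMI was found in 35 of 73, 21 of 97, 7 of 28, 62 of 166, 43 of 156 and 9 of 65 members, 177 of 585 in all (30.3%, or 25.8% after thinning to 1000 UMIs), against 0.952% of T cell nuclei. In 6 of 6 libraries the nuclei with it held more Folr2 and Cbr2, more of the lectins Cd209f, Cd209g and Cd209d, more Selenop and more C1q. In SAT 2 months replicate 1, for example, Folr2 and Cbr2 summed to 2192 CPM with Lyve1 and 480 without, and the 3 lectins to 2800 against 253 CPM. Retnla, the growth factor Igf1 and Cd163 were higher with Lyve1 in 5 of 6 libraries, and Ccr2, the chemokine receptor of monocytes, was lower in 5 of 6. MHC class II genes were higher with Lyve1 in 3 of 6, so they did not follow Lyve1 here. The C1q genes and Cd163 are rule genes, so the rule partly shapes their levels among members. None of these contrasts was tested.

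Nuclei with Slfn4 held more of the interferon list than the other members in each of the 4 libraries that had them, 8885 against 4710 and 11793 against 4391 CPM in young SAT and 3497 against 2547 and 4424 against 3272 CPM in VAT. Siglec1 and the rule genes C1qa, C1qb and C1qc were also higher in them in 4 of 4 libraries and Mertk and Vcam1 lower, as were Cd4 and St6galnac3, of which the VAT members held 1 to 4 UMIs a library. Other genes varied by library. In the 2 young SAT libraries they held more Retnla (10050 against 3944 and 9852 against 3931 CPM) and more MHC class II, and no Vcam1 UMI, while the other members held 950 and 834 CPM of this adhesion molecule; in VAT the values lay closer, at 169 against 238 and 492 against 510 CPM. In VAT replicate 1 the 11 nuclei with Slfn4 held 84.3 CPM of Retnla against 4493, no Lyve1, and high Marco (4340 against 121 CPM), Apoe (25828 against 5095 CPM) and Cd5l (1896 against 23.3 CPM). In VAT replicate 2, where 3 nuclei held Slfn4, they again had no Lyve1, no Retnla and more Apoe (16058 against 6745 CPM) and Cd5l (1311 against 182 CPM), but no Marco UMI and more MHC class II (15566 against 10254 CPM).

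A further 104 of the 585 members (17.8%) held no UMI of Mrc1, F13a1 or Cd163 and were chosen by C1q alone, 14, 36, 2, 16, 12 and 24 by library. In young SAT they held more of the phagocytic receptor Mertk (1007 against 435 and 1186 against 195 CPM), more Vcam1 (1595 against 586 and 1215 against 133 CPM) and little Retnla (168 against 6160 and 512 against 9338 CPM). These nuclei, 19.2% and 37.1% of the young members, held 41.5% and 80.4% of the Cd4 UMIs and 85.3% and 92.9% of the St6galnac3 UMIs. Both genes were thus lower at 24 months in a comparison in which 2 and 16 such members of SAT at 24 months stood against 14 and 36 at 2 months. Among members with at least 1 UMI of Mrc1, F13a1 or Cd163, a setting chosen after seeing the data, 36 genes were called between ages and 9 between depots. Slfn4 with age, Cd5l, Saa3 and Prg4 kept their calls there, Slfn4 between depots and Arhgap6 lost theirs, Mgll gained a call as lower in VAT (log2 difference -2.61, edgeR adjusted p = 0.0424; the other nuclei held 299.6 and 812 CPM in SAT at 24 months and 493 and 94.6 in VAT), and Cd4, Oas3, St6galnac3 and Padi4 fell under the filter on low counts. Timd4, found in 102 of 585 members, was also held by 22 of the 32 with a Marco UMI, 10 of 11, 3 of 6, 2 of 2, 0 of 1, 6 of 10 and 1 of 2 by library. The overlap was not tested.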

How the data were processed

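Per the labels and the study's methods, nuclei were captured with a Singleron GEXSCOPE kit, and the authors aligned reads to GRCm39 with Celescope. The deposited values are raw UMI counts per gene and nucleus in 6 libraries of 6158 to 11341 barcodes and 8061862 to 16226690 UMIs. VAT at 2 months was not analysed here, and values of some genes are not reported here. Nuclei were filtered and chosen by the rule given above, on raw counts. The members and the gene lists were chosen with earlier results of these data known.

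UMIs of the members were summed per library. Genes passing filterByExpr were tested with edgeR 4.0.16 (R 4.3.3, TMM scaling, quasi-likelihood test, 3 groups in 1 fit, Benjamini-Hochberg adjustment over all tested genes, threshold 0.05). Differences against other immune nuclei, those of the gate of at least 2 immune UMIs that adipocyte RNA also entered, were tested as an interaction with library as a block. Shares were compared with exact permutation tests. Ratios of 1 to 3 UMIs have exact 95% counting intervals, and groups without UMIs a floor of 3. UMIs limit precision: in SAT 24 months replicate 1, 1 UMI of the members is 22.1 CPM. Per comparison and direction, up to 8 called genes with the largest log2 difference were named, if their libraries did not overlap, they reached 50 CPM in the higher group and they were there at least as high as in all other nuclei. Where under 4 passed, the smallest p filled up to 4, and called genes of the lists were added.

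In data simulated for the age comparison (4907 genes, 200 changed, the same dispersion for every gene), 48% of 4-fold changes were called with 3 false calls, and 100% of 16-fold changes with 15. These rates do not cover genes that vary more between libraries than was simulated. Scrublet marked 3 to 14 nuclei per library, at most 0.562% and no member, so doublets were in effect not removed. Of the gene IDs, 98.7% matched the annotation used for coordinates. Alternatives were other scalings (RLE, library size), DESeq2 1.42.0, no filter, other limits on nuclei, a replicate block and leaving out each library.

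The deviations of same-numbered libraries correlated by -0.08, 0.05 and -0.08 over 2019 genes for the 3 pairs of groups. No pairing by replicate number was seen. Only SAT and VAT at 24 months could share mice, and 2 libraries per group cannot exclude pairing by mouse there.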

Additional observations from a re-analysis of the deposited data

Results flagged for a closer look

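The age or depot difference of 5 of the named genes in members differed from that in other immune nuclei of the same libraries, by a test of the difference itself (edgeR interaction, adjusted over 16359 genes). For age in SAT, the difference of both log2 differences was 4.49 for Mamdc2 (adjusted p = 0.00691), -11.6 for Slfn4 (adjusted p = 0.00242) and -3.78 for St6galnac3 (adjusted p = 0.000121). St6galnac3 stood at 167 and 212 CPM in all other nuclei at 2 months and at 415 and 80.9 CPM at 24 months, against 530 and 547 and then 44.3 and 41.1 CPM in members, where 85.3% and 92.9% of its UMIs at 2 months lay in nuclei without Mrc1, F13a1 or Cd163. For depot at 24 months it was 12.2 for Saa3 (adjusted p = 0.00158), 11.1 for Prg4 (adjusted p = 0.0186) and 11.3 for Slfn4 (adjusted p = 0.0154). Slfn4, Saa3 and Prg4 had no UMI in the members of SAT at 24 months, so their fitted values depend on the prior count and are not bounds. With either SAT 2 months library left out, no gene had such an age difference.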

How the results depend on the processing

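No difference named for a gene reversed, but the calls depend on single libraries and on the tool. The count of genes between ages was 24; it was 128 with no filter on low counts, 38 in a fit of the 4 libraries alone and 1 to 93 with 1 library left out. Between depots it was 7; it was 2 in DESeq2, 29 with no filter, 1 in a fit of the 4 libraries alone and 0 to 27 with 1 library left out. The genes that differed from other immune nuclei numbered 39 for age, 25 with no filter and 0 to 24 with 1 library left out; for depot they numbered 18, and 4 to 74 with 1 library left out. DESeq2 called 22 genes between ages, 15 of them the same, and among the 25 named results ended the calls of Arhgap6, BC147527, Cd4, Ifi213, Ms4a4c, Oas3, Padi4, Prg4, Saa3 and, between depots, Slfn4. Cd4 and Ifi213 also lost theirs with at least 6 rule UMIs. In the fit of the 4 libraries alone, Alox15, Cd5l, Padi4, Prg4 and Slfn4 lost their depot calls. With VAT 24 months replicate 1 left out, which leaves that group with 1 library, Alox15 and Prg4 lost theirs too. The cause was not tested.

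The age difference in share was 2.01 points with no limit on UMIs of other cell types, a setting chosen after seeing the data, and the depot difference 2.55 points of all nuclei and 8.71 of immune nuclei with over 200 genes and 500 UMIs. Thinned to 1000 UMIs, the differences of immune nuclei were 6.42 points for age and 4.12 for depot, where 3.31 and 2.22 stood. The depot difference of all nuclei, 0.0753, turned to -0.782 with no limit on other types, -0.216 when thinned and -0.0884 with at least 6 rule UMIs. With 1 library left out the age difference ran from -0.510 to 1.89 points of all nuclei and the depot difference from -1.13 to 1.28; of immune nuclei they ran from -0.275 to 6.89 and from -1.64 to 6.08.

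With the replicate number as a block, 39 genes were called between ages, all 24 included, and 8 between depots, and no other call changed. No label ties these numbers to mice, so this is no stronger result. SAT 24 months replicate 1, with 28 nuclei and 45166 UMIs, limits what could be seen.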

Other observations

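Cell cycle genes were at their highest level in the members of 1 library. The 15 proliferation genes summed to 1218 CPM in VAT 24 months replicate 2 and to 88.6 to 426 CPM in the other 5 libraries, and 8 of its 65 members (12.3%) held a UMI of Mki67, a protein of dividing cells, against 25 of 585 in all. Of the T cell nuclei of the same library, 24 of 104 (23.1%) held one. The same library stood apart in B and plasma cell genes, at 4352 CPM against 637 to 1019 CPM, of which 404 UMIs of the antibody heavy chain gene Ighm lay in 1 nucleus. Its members also held the ovary list at 484 CPM, with 2614 CPM in its other nuclei and 27.4 to 50.4 CPM in the members of the other 5 libraries. These are values of 1 library and were not tested.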
